A study of Mus musculus with 12 samples.

Results

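The miR-106b~25 cluster (miR-106b, miR-93 and miR-25) and miR-92b were followed through 12 small RNA libraries of murine serum. They were chosen by name, as the main mature arms of one polycistronic cluster plus a miRNA from another chromosome that shares the seed of miR-25. The choice comes to 5 of the 1340 entries in the count tables. Of these, 4 are among the 874 murine entries (miR-106b-5p, MIMAT0000386; miR-93-5p, MIMAT0000540; miR-25-3p, MIMAT0000652; miR-92b-3p, MIMAT0004899), and 1 is among the 466 human entries (miR-92b-3p, MIMAT0003218). All 5 had reads in each of the 12 libraries.

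Sera came from 3 female athymic immunodeficient NCr nude mice (numbers 1046, 1047 and 1069), aged 4 to 6 weeks at surgery, before and 2 weeks after cells of SH-SY5Y, an established human neuroblastoma line, had been placed beneath the renal capsule. The serum input per RNA isolation was 50 μl. For each mouse and time point there is 1 library of depleted RNA and 1 of undepleted RNA. Depletion removed 5′ tRNA fragments with biotinylated DNA probes and streptavidin beads. The study refers to the undepleted ones as the same RNA samples. It does not state whether both libraries came from a single RNA isolation. Crossing the 2 time points with the 2 kinds of RNA gives 4 groups of 3 libraries, and all groups share the mice, the strain and the absence of any drug treatment. No mouse without a tumour was sampled at the later time, so tumour, surgery and elapsed time cannot be told apart, and in serum a release from fewer cells cannot be told apart from less RNA released per cell.

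Mature miRNAs guide Argonaute proteins to messenger RNAs, mainly by pairing of the seed, the bases 2 to 8 from the 5′ end, and so lower the output of their targets. The miR-106b~25 cluster lies inside Mcm7, which encodes a subunit of the replicative helicase, and it is a paralogue of the oncogenic miR-17~92 cluster. Its members are known for restraining cell cycle inhibitors and pro-apoptotic factors. They are also abundant in red blood cells. The gene of miR-92b has its own locus, and the miRNA is known from neural progenitors.

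The mature murine sequences, credited to RefSeq (GRCm38.p6), are shown with the seed in capitals because the seed splits the 4 miRNAs into 2 pairs that do not follow their genomic grouping.
mmu-miR-106b-5p: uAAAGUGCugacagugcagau
mmu-miR-93-5p: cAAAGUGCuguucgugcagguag
mmu-miR-25-3p: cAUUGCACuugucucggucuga
mmu-miR-92b-3p: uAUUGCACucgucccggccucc

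The first pair holds the seed AAAGUGC, which 7 of 1679 mature murine miRNAs in the RefSeq table have, among them miR-17-5p and miR-20a-5p. The second pair holds AUUGCAC, found in 6 of 1679, among them miR-92a-3p. Outside the seed the members can be separated by their letters: miR-106b-5p and miR-93-5p are identical at 16 of 21 positions aligned from the 5′ end, and miR-25-3p and miR-92b-3p at 16 of 22. The reads had been mapped without mismatches. miR-92b-3p is the richest in G and C (63.6% of its bases) and miR-106b-5p the poorest (42.9%), with miR-25-3p at 50.0% and miR-93-5p at 52.2%.

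On GRCm38 the 3 hairpins of the cluster lie on the minus strand of chromosome 5 within 498 bases. Transcription passes Mir106b (138165737 to 138165818) first, then Mir93 (138165523 to 138165610) and Mir25 (138165321 to 138165404). All 3 fall in intron 13 of the 15-exon Mcm7 transcript and in intron 8 of a 9-exon transcript of the same gene (GENCODE). The Mir93 and Mir25 hairpins also fall in exon 1 of a short 2-exon transcript. Mir92b (chromosome 3, 89227116 to 89227198, minus strand) lies 27 bases upstream of the annotated start of Mtx1, which encodes a protein of the outer mitochondrial membrane.

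Depth differed strongly between the arms. The murine tables summed to 938706 to 2271549 counts per library in depleted RNA and to 21235 to 97183 in undepleted RNA, and the lowest total belonged to mouse 1069 before injection. Levels are given as counts per 1000000 counts of the murine table (CPM), and fold changes as log2 values from DESeq2. A miRNA was called when its Benjamini-Hochberg adjusted p was under 0.05 and its change at least 2-fold. Nothing in the labels says more of replication than the mouse numbers, so p-values of the time comparisons measure the spread between 3 mice. Those of depletion and of the interaction measure the spread among the 12 libraries, which come from the same 3 mice. The Wilson and exact intervals cover counting error only. They can be too narrow even for that, since PCR reads without molecular identifiers are not independent molecules. Intervals of log2 fold changes come from the SE by DESeq2.

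The cluster members held the same order in every serum, and miR-92b-3p was the least abundant member in most. miR-25-3p exceeded miR-93-5p in 12 of 12 libraries and miR-93-5p exceeded miR-106b-5p in 12 of 12. miR-106b-5p exceeded miR-92b-3p in 9 of 12. The other 3 libraries were from sera after injection: mouse 1069 in both arms and mouse 1047 undepleted. In the last of these the 95% Wilson intervals overlapped (249 to 595 CPM for miR-106b-5p, 357 to 756 CPM for miR-92b-3p).

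In CPM, all 3 members of the cluster were lower after injection than before in each of the 3 mice and in both arms, while miR-92b-3p was higher. miR-25-3p, the most abundant, stood at 36106, 37722 and 31673 CPM before injection in depleted RNA of mice 1046, 1047 and 1069, and at 22599, 21608 and 17566 CPM afterwards. In undepleted RNA the values were 37661, 39244 and 27266 CPM before and 20252, 21616 and 17596 CPM after. Every serum before injection was above every serum after it in both arms, and mouse 1069 was lowest within each of the 4 groups.

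miR-93-5p, which shares its seed with miR-17-5p and not with miR-25-3p, moved the same way. In depleted RNA it stood at 14833, 15070 and 11673 CPM before and at 10195, 10103 and 7472 CPM after injection. In undepleted RNA it stood at 10763, 11878 and 10360 CPM before and at 7044, 7026 and 5784 CPM after. Again the 2 time points did not overlap in either arm.

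miR-106b-5p, the first hairpin of the transcript and the least abundant of the 3, stood at 1388, 1232 and 1641 CPM before and at 968, 926 and 782 CPM after injection in depleted RNA. In undepleted RNA it stood at 823, 722 and 659 CPM before and 528, 385 and 344 CPM after. The time points did not overlap, but the undepleted values rest on 14 to 80 reads, and the Wilson interval of the serum of mouse 1069 before injection (393 to 1106 CPM, 14 reads) covers the other undepleted estimates before injection and 1 of the 3 after it.

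miR-92b-3p went the other way. In depleted RNA it stood at 248, 171 and 433 CPM before and 306, 544 and 955 CPM after injection in mice 1046, 1047 and 1069. The groups overlapped there, because mouse 1069 before injection was above mouse 1046 after it. In undepleted RNA it stood at 185, 144 and 47.1 CPM before and 205, 520 and 1133 CPM after, without overlap, but from 18, 13 and 1 reads before and 14, 27 and 56 reads after.

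**Figure D1:**
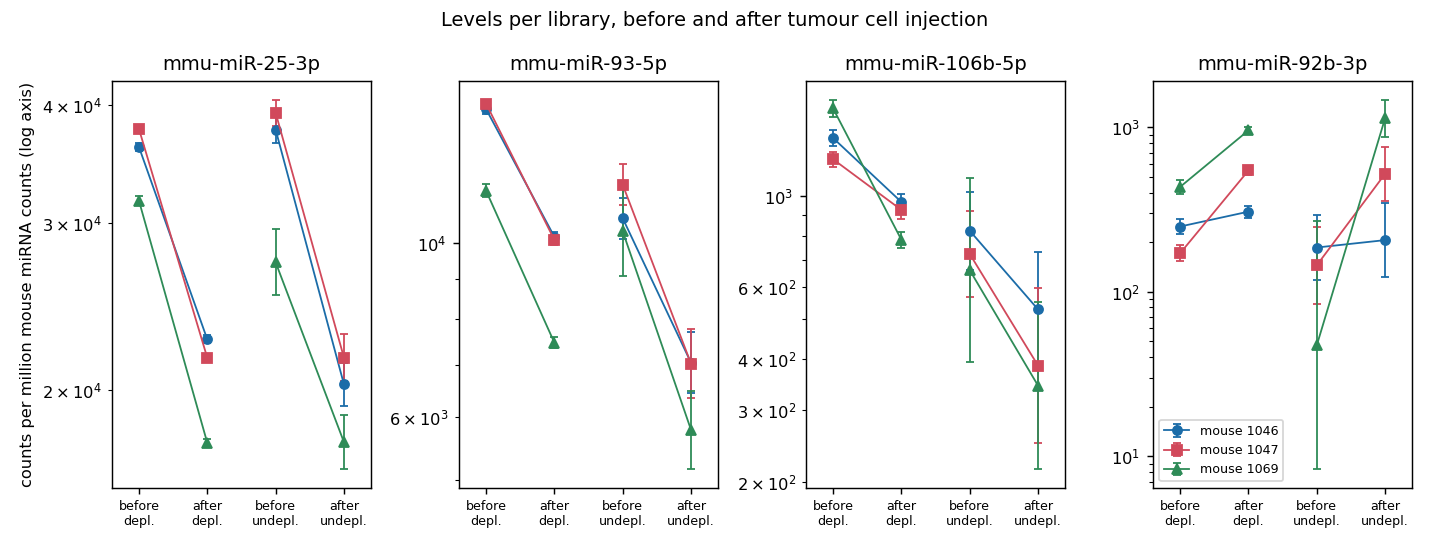
CPM of the murine table (log axis, its range set for each panel) of the 4 murine miRNAs in every library; lines join the sera of 1 mouse before and after injection within an arm, and bars are 95% Wilson intervals. Each line slopes down for miR-25-3p, miR-93-5p and miR-106b-5p and up for miR-92b-3p, with the steepest rise in mouse 1069 undepleted, where the first value is 1 read.

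Lack of overlap was common in these libraries. Of the miRNAs tested, 39.4% did not overlap between time points in depleted RNA and 45.4% in undepleted RNA, in either direction. In depleted RNA, the log2 fold change by DESeq2 was -1.00 ± 0.25 (SE; adjusted p = 0.00159) for miR-25-3p, -0.82 ± 0.27 (adjusted p = 0.0181) for miR-93-5p and -0.89 ± 0.23 (adjusted p = 0.00191) for miR-106b-5p. Only miR-25-3p was called, so 1 of the 4 murine members passed both criteria, where 10.6% of 310 tested miRNAs did (33, of which 15 were higher and 18 lower). All 3 cluster members passed on adjusted p alone in the lower direction, as did 9.35% of all tested. The values of the 3 ran from -0.82 to -1.00, and the median over all tested miRNAs was -0.09.

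The call of miR-25-3p sat on the 2-fold limit. Its fold was 0.499, with a 95% interval of the log2 value from -1.50 to -0.50. With the mouse as a block in DESeq2 it became -0.98 (adjusted p = 0.0041), and with scaling by the table total -0.74 (adjusted p = 0.0084), both short of 2-fold. Single mice also mattered. Without mouse 1047 the adjusted p by DESeq2 was 0.124 for miR-106b-5p, 0.287 for miR-93-5p and 0.156 for miR-25-3p. Without mouse 1046 it was 0.0668, 0.142 and 0.0543, with values between -0.80 and -0.99. Without mouse 1069 it was smaller than with all mice, at 7.93e-06, 2.14e-08 and 2.49e-11, with values between -0.83 and -1.11. miR-93-5p also did not pass by edgeR's quasi-likelihood test (-0.87, adjusted p = 0.0624) or, in DESeq2, with scaling by the table total (-0.55, adjusted p = 0.0899).

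In undepleted RNA the fold changes of the cluster were of like size: -0.88 ± 0.25 (adjusted p = 0.00347, DESeq2) for miR-25-3p, -0.81 ± 0.23 (adjusted p = 0.00388) for miR-93-5p and -0.81 ± 0.37 (adjusted p = 0.101) for miR-106b-5p. The first 2 passed on adjusted p in the lower direction, as did 9.26% of 108 tested miRNAs, and none of the 3 reached 2-fold. Without mouse 1047 the adjusted p was 0.998 for all 3, and by edgeR it was 0.0558 for miR-25-3p, 0.0920 for miR-93-5p and 0.0906 for miR-106b-5p. Leaving out the single library of mouse 1069 before injection, a choice made after seeing the data, brought miR-25-3p to -1.16, past 2-fold, and miR-106b-5p to -0.93 (adjusted p = 0.0327, DESeq2).

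For miR-92b-3p the log2 fold change by DESeq2 was 0.77 ± 0.35 (adjusted p = 0.122) in depleted RNA, which did not pass the test, with a 95% interval from 0.09 to 1.46. In undepleted RNA it was 1.39 ± 0.47 (adjusted p = 0.0200) and was called. It was the only murine member called there, where 11.1% of tested miRNAs were called (12, with 9 higher and 3 lower), and no tested miRNA had a larger fitted value. By edgeR the depleted change was 0.95 (adjusted p = 0.0396), still under 2-fold.

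The undepleted call of miR-92b-3p rested on few reads and was lost without either of 2 mice. Without mouse 1069 it fell to 0.50 (adjusted p = 0.468, DESeq2), without mouse 1047 it was 1.36 (adjusted p = 0.685), and with the mouse as a block it was 1.22 (adjusted p = 0.0952). Without only the library holding 1 read it was 1.14 (adjusted p = 0.0338), again a choice made after seeing the data. By mouse, the CPM ratio of after to before in depleted RNA was 1.23 for mouse 1046 (95% exact counting interval 1.07 to 1.42), 3.19 for mouse 1047 (2.80 to 3.63) and 2.21 for mouse 1069 (1.98 to 2.46). In undepleted RNA it was 1.11 (0.511 to 2.36), 3.60 (1.79 to 7.59) and 24.1 (4.14 to 967). In CPM the rise was thus smallest in mouse 1046 in both kinds of RNA, where the undepleted interval covers no change. The sign of the change in mouse 1046 depended on the scaling. With the size factors of the DESeq2 fit, its depleted value was 448.1 normalised counts before and 437.4 after injection. The undepleted value of that mouse was also slightly lower after injection on this scale.

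Whether the change over time differed between depleted and undepleted RNA was tested as an interaction in DESeq2. The difference (depleted minus undepleted, log2) was -0.04 ± 0.36 for miR-25-3p, 0.05 ± 0.34 for miR-93-5p, 0.13 ± 0.28 for miR-106b-5p and -1.00 ± 0.89 for miR-92b-3p, all with an adjusted p of 0.998. Of all 874 miRNAs 0 passed (0% called; edgeR also called 0), and 3 had an unadjusted p under 0.05. The 95% interval for miR-92b-3p ran from -2.73 to 0.74. Those of the cluster members were narrower, the widest running from -0.75 to 0.66 for miR-25-3p. The fit had no block for the serum, so the pairing of the 2 libraries of a mouse and time point was left out. With the serum as a block in DESeq2, the difference was -0.06 ± 0.10 for miR-25-3p and 0.04 ± 0.12 for miR-93-5p. It was 0.12 ± 0.29 for miR-106b-5p and -0.73 ± 0.52 for miR-92b-3p. Each adjusted p was 0.999 by DESeq2, and 0 miRNAs passed.

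**Figure D2:**
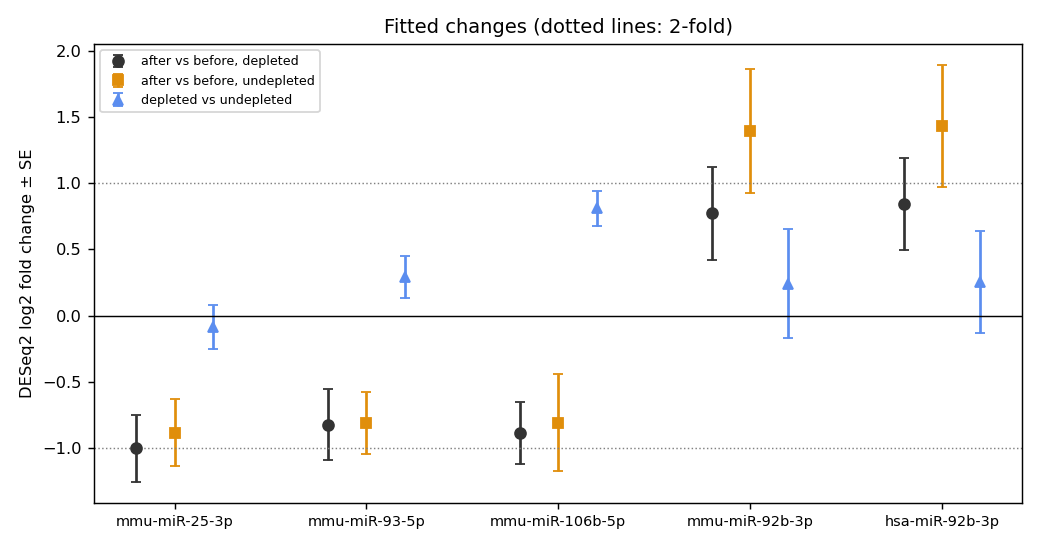
DESeq2 log2 fold change with its SE (vertical axis) for the 4 murine miRNAs and human miR-92b-3p, for after against before injection in depleted (circles) and undepleted RNA (squares) and for depleted against undepleted RNA (triangles). The cluster members lie between -0.81 and -1.00 for both time comparisons, miR-92b-3p lies above 0, and the depletion effect is largest for miR-106b-5p at 0.81.

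The human table adds no separate reads for miR-92b-3p. Its human entry held the same count as the murine entry in 12 of 12 libraries, 4843 reads in each table over all of them. The 311 to 406 reads in depleted RNA before any human cell was present were therefore listed under the human miRNA as well, and the species of origin of the later reads cannot be told apart from the counts. Normalised within the human table, the log2 fold change by DESeq2 was 0.84 ± 0.35 (adjusted p = 0.103) in depleted RNA, where 7.12% of tested human miRNAs were called. It was 1.43 ± 0.46 (adjusted p = 0.0134) in undepleted RNA and called, as were 10.1% of those tested. Scaling by the table total brought the depleted value to 1.26 (adjusted p = 0.0313), past both criteria, and the mouse as a block brought the undepleted value to 1.24, with no adjusted p given by DESeq2.

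The cluster members had near-identical partners in the human tables too. The human entry closest in counts to miR-25-3p, MIMAT0000081, agreed in 12 of 12 libraries, with 276030 reads in each table. The closest to miR-93-5p, MIMAT0000093, agreed in 10 of 12 and differed by 5 reads in all. The closest to miR-106b-5p, MIMAT0000680, agreed in 11 of 12 and differed by 1 read. These partners were found by their counts, not by name.

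Together the 3 cluster members made up 5.04% ± 0.48 (SD, n = 3) of the murine counts before and 3.07% ± 0.43 after injection in depleted RNA, and 4.65% ± 0.72 and 2.69% ± 0.28 in undepleted RNA. These shares are relative to the table total. Ratios between members of the same library do not depend on the scaling between libraries. Within the cluster, miR-25-3p gave 66.2% to 70.4% of the reads in depleted and 71.2% to 76.5% in undepleted libraries. miR-106b-5p gave 2.28% to 3.65% and 1.33% to 1.90%. Both miRNAs thus separated the arms without overlap, in opposite directions, whereas miR-93-5p overlapped (25.9% to 31.0% against 21.9% to 27.1%). The 3 shares are parts of the same whole and cannot all move in the same direction, and the separation was not tested.

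The ratio of miR-25-3p to miR-93-5p was lower after injection in depleted RNA, a difference that was not tested. There were 2.43 to 2.71 reads of miR-25-3p per read of miR-93-5p before injection and 2.14 to 2.35 after it, without overlap. How often ratios of other miRNAs lack overlap was not computed. In undepleted RNA the corresponding ranges, 2.63 to 3.50 and 2.88 to 3.08, overlapped. The pair that shares the AUUGCAC seed diverged: per 1000 reads of miR-25-3p, miR-92b-3p had 6.88, 4.53 and 13.7 reads before and 13.5, 25.2 and 54.4 reads after injection in depleted RNA. In undepleted RNA it had 4.92, 3.68 and 1.73 before and 10.1, 24.0 and 64.4 after. The ratio was higher after injection in each mouse and arm, although mouse 1069 before injection (13.7) was just above mouse 1046 after it (13.5) in depleted RNA.

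**Figure D3:**
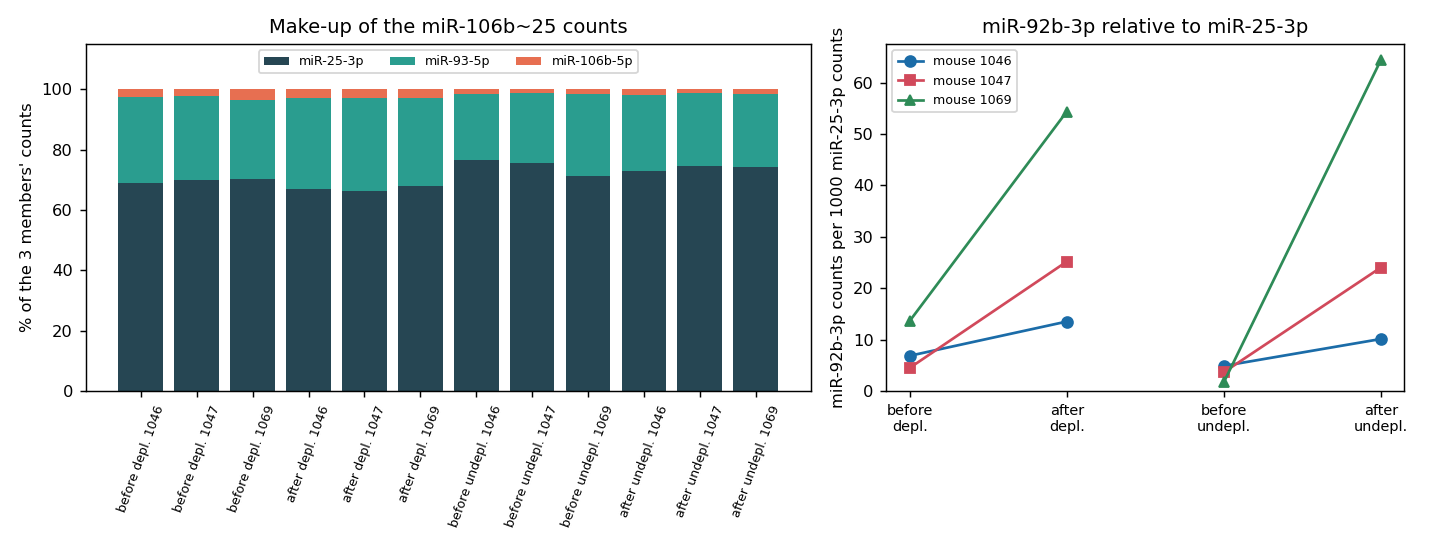
Left, the percentage of the cluster's reads from each of its 3 miRNAs in the 12 libraries; right, reads of miR-92b-3p per 1000 reads of miR-25-3p, with lines joining the sera of 1 mouse within an arm. miR-25-3p gives 66.2% to 76.5% everywhere with the smaller shares in depleted libraries, and the ratio on the right goes up in every mouse, least in 1046.

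Depletion of the tRNA fragments left most members at similar relative levels and raised that of miR-106b-5p. Its CPM was higher in the depleted library of 6 of 6 sera, by 1.69 to 2.49 times, and the log2 fold change by DESeq2 was 0.81 ± 0.13 (adjusted p = 1.09e-08). This is under 2-fold, so 0 of the 4 murine members were called, against 8.36% of 383 tested miRNAs. In the fit of all 12 libraries with the size factors used and no block for the serum, miR-106b-5p was the 1 member to pass on adjusted p alone in the higher direction. Of those tested, 8.62% did. With TMM scaling or by edgeR it exceeded 2-fold (1.08 and 1.12). The median log2 fold change over abundant miRNAs was -0.01 under the size factors used and 0.26 under TMM scaling, so that the value relative to this median was about the same. Under scaling by the table total, as in CPM, the median was 0.12, so abundant miRNAs tended to be slightly higher in depleted RNA on that scale.

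miR-93-5p was higher in the depleted library of 6 of 6 sera by 1.13 to 1.45 times, with a log2 fold change of 0.29 ± 0.16 (adjusted p = 0.275, DESeq2). With the serum as a block, which compares the 2 libraries of each mouse and time point, it was 0.30 ± 0.05 (adjusted p = 9.32e-07). It also passed on adjusted p with total scaling (0.40, adjusted p = 0.00602, DESeq2), with TMM scaling (0.56, adjusted p = 0.0211) and by edgeR (0.56, adjusted p = 0.0460), each time under 2-fold. miR-25-3p was higher in 2 of 6, at 0.959 to 1.16 times, with a log2 fold change of -0.09 ± 0.17 (adjusted p = 0.868, 95% interval -0.42 to 0.24) and a sign that turned under each other scaling. miR-92b-3p was higher in 5 of 6, with 0.24 ± 0.41 (adjusted p = 0.848, 95% interval -0.56 to 1.05), and the human entry gave 0.25 ± 0.38 (adjusted p = 0.819), where 5.56% of human miRNAs were called. The serum with 1 undepleted read of miR-92b-3p stood apart from the other 5.

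The red blood cell miRNAs that could be matched moved along with the cluster. miR-144-5p and miR-486a-5p, also on the erythroid list, could not be matched, so their changes are not given. The 3 matched ones were miR-451a and miR-144-3p, the products of an erythroid locus, and miR-16-5p, abundant in red blood cells. They summed to 22.6% to 28.4% of murine counts before and 11.2% to 16.2% after injection in depleted RNA. In undepleted RNA they summed to 24.2% to 29.7% and 10.9% to 16.5%. All 3 were lower, with log2 fold changes by DESeq2 of -1.20, -1.65 and -1.07 in depleted and -1.17, -1.31 and -0.95 in undepleted RNA, the last short of 2-fold. None was at 0 in any library. The part of this change in that of miR-25-3p, miR-93-5p and miR-106b-5p was not tested. Haemolysis values were not used here.

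The miRNAs most like each cluster member over the 12 libraries, by Pearson's r of log2(CPM + 1) centred on each arm's mean among 71 abundant miRNAs, included miR-451a and miR-16-5p. The points are 2 libraries for each of 6 sera from 3 mice and share library totals, so r is a description. For miR-25-3p the 3 highest were MIMAT0014943 (0.985), miR-16-5p (0.978) and miR-451a (0.959). For miR-93-5p they were miR-451a (0.982), miR-16-5p (0.973) and MIMAT0014943 (0.961), and for miR-106b-5p miR-16-5p (0.931), MIMAT0000526 (0.910) and miR-451a (0.906). miR-144-3p was among none of these, with an r of 0.693, 0.687 and 0.776 for miR-25-3p, miR-93-5p and miR-106b-5p. Among themselves miR-25-3p and miR-93-5p gave 0.962, miR-25-3p and miR-106b-5p 0.885, and miR-93-5p and miR-106b-5p 0.860.

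miR-92b-3p was most like MIMAT0000670 (0.834), MIMAT0000161 (0.827) and MIMAT0000158 (0.821). With the cluster its r was negative: -0.66 with miR-25-3p, -0.81 with miR-93-5p and -0.72 with miR-106b-5p. The order of the 3 differed between the arms. In depleted libraries the values were -0.85, -0.92 and -0.57, and in undepleted libraries, which include the one with a single read, -0.60, -0.79 and -0.80. With the erythroid miRNAs r was -0.84 for miR-451a, -0.56 for miR-144-3p and -0.78 for miR-16-5p.

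**Figure D4:**
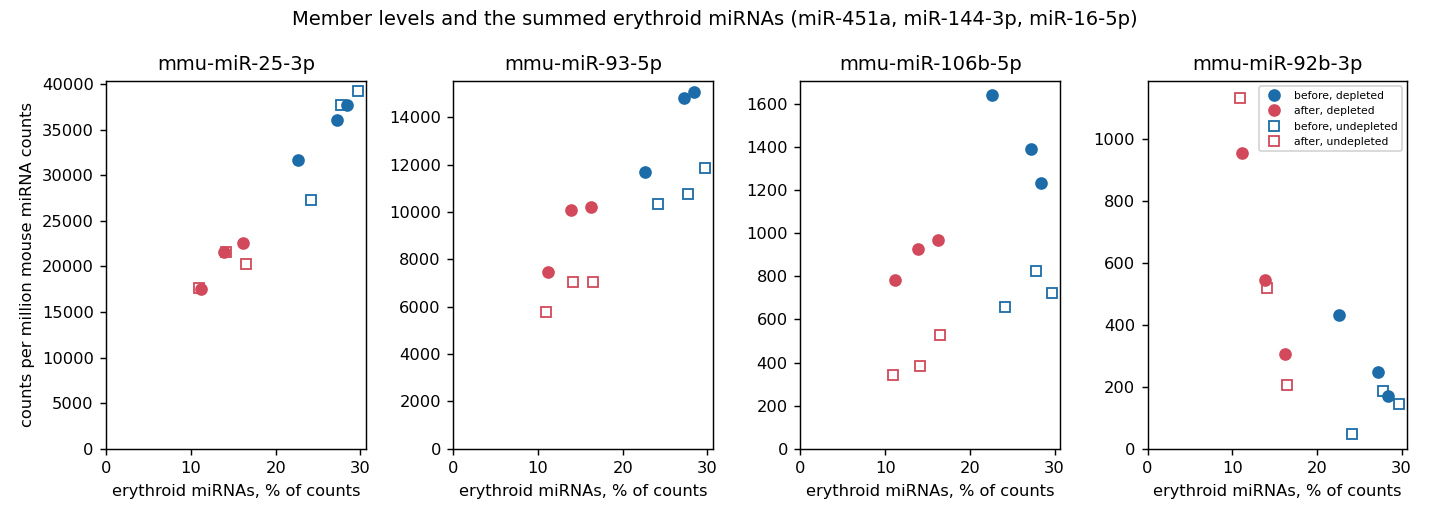
CPM of the 4 murine miRNAs (vertical axes, from 0) against the summed share of miR-451a, miR-144-3p and miR-16-5p in the same library (horizontal axes, % of murine counts); filled circles are depleted and open squares undepleted libraries, blue before and red after injection. Sera after injection lie at 10.9% to 16.5% and those before at 22.6% to 29.7%, with the cluster members lower and miR-92b-3p mostly higher at the smaller shares.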

How the data were processed

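Per the labels and the study's methods, the authors trimmed adaptors with cutadapt 1.8.1, mapped reads with Bowtie 1.1.2 without mismatches to GRCm38/mm10 and GRCh37/hg19 (versions from the submitters' processing notes), and deposited raw read counts per mature miRNA, with 1 murine and 1 human table per library. How reads matching several loci were counted is not given in the sources used here. An entry missing from a library was taken as 0. The study's methods name DESeq2. Here version 1.42.0 was used in R 4.3.3, with median-of-ratios scaling, the Wald test, a prior on fold changes and independent filtering chosen for this work, fitted over the whole table of each comparison. Time points were compared within each arm, depletion over all 12 libraries, and the interaction without the prior. Calls needed an adjusted p under 0.05 and a 2-fold change (adjusted p alone for the interaction). Fits were tested on simulated data. CPM, shares, Wilson (95%) and exact intervals were computed in Python 3.11.15.

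The tables give MIMAT accessions without names. The named miRNAs were the members, the 3 miRNAs most like each and an erythroid list. The members' names follow from their selection, miR-16-5p from the study, and miR-451a and miR-144-3p from that list, with no file here pairing them. Opposite arms, relatives by seed or cluster, the erythroid miR-144-5p and miR-486a-5p and markers of other cell types, also listed, could not be matched and are not used here. Members and lists were chosen with earlier results of these data known. Sequences and loci came from RefSeq (4 of 4 murine members matched) and GENCODE M21.

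Pairing follows from the labels, which give the mouse and the time point of each library. Deviations from group means correlated at 0.43 to 0.62 between the 2 libraries of a mouse and time point (the serum block), and at -0.42 to 0.10 between times of a mouse. Alternatives were edgeR 4.0.16, TMM and total scaling, a filter of at least 4 counts in 3 libraries, no prior, adjusted p alone, the block, each mouse left out and, for depletion, each time point alone.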

Additional observations from a re-analysis of the deposited data

Results flagged for a closer look

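Over the 6 sera, the log2 ratio of depleted to undepleted CPM of miR-92b-3p had 1 value far from the rest. The serum of mouse 1069 before injection stood at 3.20, and the other 5 ran from -0.25 to 0.57. The gap divided by the range was 0.762, above Dixon's 95% critical value for 6 samples, which chance passes in about 1 of 20 groups. The ratio rests on 406 reads in the depleted and 1 read in the undepleted library (a ratio of 9.18, 95% exact counting interval 1.64 to 364). The human entry, which holds the same reads, gave 0.783.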

How the results depend on the processing

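The tumour effects of all members kept their direction under each alternative. Of their values, 84 kept their side of the threshold, 7 gained a call and 14 were no longer called, 3 of these because DESeq2 gave no adjusted p. The cause of the changes below was not tested unless the setting itself gives it. With adjusted p alone, the cluster passed in depleted RNA for miR-106b-5p (-0.89) and miR-93-5p (-0.82) and in undepleted RNA for miR-93-5p (-0.81) and miR-25-3p (-0.88), and miR-106b-5p passed for depletion (0.81). miR-25-3p in depleted RNA lost its call with TMM scaling (-0.97), total scaling (-0.74), the filter (-1.00, just short) and the replicate block (-0.98). Leaving out 1 mouse gave -0.81 to -1.11, and in undepleted RNA -0.69 to -1.08, or -1.16 without only the library of mouse 1069 before injection. miR-92b-3p in undepleted RNA was 1.45 with the filter and 1.98 without the prior, both without an adjusted p, and 1.22 with the replicate block, or 1.24 for the human entry. Leaving out 1 mouse gave 0.50 to 1.85 (human entry 0.53 to 1.82). The human entry in depleted RNA passed with total scaling (1.26). For depletion, miR-106b-5p exceeded 2-fold by edgeR (1.12) and with TMM (1.08). miR-25-3p turned sign by edgeR (0.18), with TMM (0.17) and with total scaling (0.033), as did miR-92b-3p in sera after injection alone (-0.11, human entry -0.12). None of these passed the test. Interactions near 0 turned sign for miR-106b-5p by edgeR (-0.0022) and for miR-93-5p by edgeR (-0.068), for miR-106b-5p on leaving out 1 mouse (-0.016 to 0.20), and for miR-25-3p (-0.15 to 0.07, or 0.16 without only the library of mouse 1069 before injection). The replicate block changed no other call.

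Counts of called miRNAs moved with the call rule, with single mice and, in the human tables, with the test and the scaling. Adjusted p alone gave 52 for 33 in depleted and 21 for 12 in undepleted RNA (murine), 37 for 23 and 21 for 9 (human), and 55 for 32 and 45 for 23 for depletion (murine and human). edgeR gave 43 and 15 and total scaling 46 and 16 for the human tables. Leaving out 1 mouse or 1 library gave 11 to 32 and 1 to 13 (murine), and 6 to 17 and 1 to 13 (human), with the lowest counts without mouse 1047. For depletion it gave 19 to 33 (murine), and sera before injection alone gave 17 (murine) and 12 (human). The median change over abundant miRNAs in depleted RNA was -0.14 with the size factors used and 0.11 with total scaling. The undepleted libraries limit miR-92b-3p and miR-106b-5p most, with at most 80 reads per library.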
